A study of Mus musculus with 8 samples.

Results

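Potassium channel genes were followed in the postnatal cortex of control and dcKO_Nex-Cre mice at P1. They were taken as the protein-coding genes whose symbol starts with *Kcn* and whose raw count averaged 10 or more over the 8 libraries, which gave 77 of the 48709 genes in the files. Of the 94 protein-coding *Kcn* genes, 17 stayed under this minimum, and 5 antisense genes with a *Kcn* name were left out. The 77 genes were sorted by hand into 11 families, with 64 genes for pore-forming subunits and 13 for auxiliary subunits and regulators. Just inside the minimum were *Kcnn4* with a mean of 10.6 counts and *Kcnk12* with 16.8, and just outside were *Kcnj13* with 7.88 and *Kcng3* with 7.75.

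RNA was taken from whole cortical tissue of 4 control and 4 dcKO_Nex-Cre samples, with 1 library each, and all mice were kept on the C57BL6/J background. Controls carried no Cre and were heterozygous for the floxed BAF155 and BAF170 alleles. In the dcKO_Nex-Cre mice both genes were floxed and Nex-Cre, which acts in the principal neurons of the cortex, was present, so that interneurons, glia and vessels of the tissue keep both genes. The sample labels give control or mutant and the age, and the Cre line is taken from the study's text. The labels do not say whether a library is 1 animal or a pool, and p-values measure the spread between these libraries only. In whole tissue, fewer cells of a type and less RNA per cell cannot be told apart.

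Potassium channels let potassium ions leave or enter the cell along their gradient, and they set the resting potential, the shape of the action potential and the firing pattern of neurons. Voltage-gated Kv channels are built from 4 alpha subunits around 1 pore. Calcium- and sodium-activated channels open when these ions rise inside the cell, inward rectifiers (Kir) hold the membrane near rest, and tandem-pore (K2P) channels carry leak current. Auxiliary subunits bind to the pore-forming ones and change their gating or their transport to the membrane. In the newborn cortex, neurons are still gaining these currents, while glia take up the potassium that neurons release.

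Pore-forming subunits share a short signature that forms the selectivity filter, whose codons are shown here because they set the pore genes apart from the auxiliary ones. The coding sequences were searched in frame, on the coding strand, for 15 bases that read ACN, TCN or AGN, then NTN, GGN, TAN or TTN, and GGN. At least 1 match was present in 63 of the 77 genes (81.8%), against 0.777% of the 21249 protein-coding genes with other names. None of the 13 auxiliary genes held a match. The K2P genes have a pair of pore segments in 1 subunit, and 8 of the 10 held 2 matches, with 1 in *Kcnk6* and none in *Kcnk1*. The other 54 pore-forming genes held 1 match each. The fourth codon was TAN in 47 of the 71 matches and TTN in 24, and it was TTN in all 8 genes of the Kv10-12 family and in none of the Kv1, Kv2, Kv3, Kv4, Kv7 and silent Kv genes. Matches below come from some of the members that the results turn on. Capitals mark the 15 bases, with 6 bases on either side, and positions are on GRCm38 (GENCODE M21).
*Kcna5*, chr6:126533739-126533765, minus strand: atgaccACTGTAGGCTACGGGgacatg
*Kcnh4*, chr11:100750287-100750313, minus strand: ctcaccAGTGTAGGCTTCGGCaacgtg
*Kcnma1*, chr14:23528407-23528433, minus strand: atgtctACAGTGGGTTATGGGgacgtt
*Kcnt1*, chr2:25894361-25894387, plus strand: ttctcaACTGTGGGCTTCGGTgatgtg
*Kcnt2*, chr1:140425272-140425298, plus strand: ttttctACTGTGGGCTTTGGGgatgtc
*Kcnj10*, chr1:172369296-172369322, plus strand: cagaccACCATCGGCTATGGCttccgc
*Kcnk4*, second match, chr19:6927625-6927651, minus strand: ctcaccACTGTAGGCTTTGGCgattat
The sodium-activated *Kcnt1* and *Kcnt2* carry TTN as the fourth codon, as does *Kcnh4*, whereas the calcium-activated *Kcnma1* carries TAN. In all, the 71 matches held 61 different runs of 15 bases, and 59 matches lie within 1 exon together with their 6 bases on either side.

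Library totals ranged from 18737230 to 24036915 counts in control cortex and from 17958641 to 35191912 in dcKO_Nex-Cre cortex, and potassium channel genes took 0.156% to 0.171% and 0.149% to 0.176% of them. *Smarcc2*, the gene of BAF170, was at 462 ± 25.9 CPM (mean ± SD of 4 libraries) in control cortex and 263 ± 26.03 CPM in dcKO_Nex-Cre cortex (adjusted p = 0.00267), and *Smarcc1*, the gene of BAF155, at 148 ± 11.6 and 102 ± 13.7 CPM (adjusted p = 0.0348), with no overlap between the groups for either gene. Within lane tag 2 the adjusted p of *Smarcc1* was 0.0752. CPM, the usual count scaled to library size, were taken after TMM normalization, and edgeR's quasi-likelihood test was run over 16287 genes. A pair of libraries stood apart. Mitochondrial genes took 6.87% of the counts in control replicate 2 and 6.15% in dcKO_Nex-Cre replicate 4, and 2.33% to 4.24% in the other 6. Without dcKO_Nex-Cre replicate 4, the genes with an adjusted p under 0.05 went from 144 (0.884% of those tested) to 1278 (7.73%). Without control replicate 2 there were 33 such genes higher and 54 lower, against 61 and 83 with all libraries. File names put dcKO_Nex-Cre replicates 3 and 4 on lane tag 8 and the other 6 libraries on lane tag 2. The labelled tissue was matched by 10 markers of excitatory cortical neurons. They summed to 1735 to 2016 CPM in control cortex and 1514 to 1710 in dcKO_Nex-Cre cortex. Their median log2 fold change was -0.062, with 3 above 0 and 7 below. At an unadjusted p under 0.05 in edgeR, 4 were lower and 0 higher, with *Fezf2* (-0.55) and *Slc17a7* (-0.54) in this set. *Neurod6* and *Emx1* among them were lower in dcKO_Nex-Cre cortex (adjusted p = 0.0192 and 0.0331 in edgeR, and 0.0338 and 0.0566 within lane tag 2). *Neurod6*, also named Nex, was the most abundant of the 10 and so weighed most in their sum, at 645 CPM in control cortex and 387 CPM in dcKO_Nex-Cre cortex. Controls carried no Cre, so that for *Neurod6* the presence of Nex-Cre and the loss of both BAF genes cannot be told apart.

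Levels between genes were compared as CPM per kilobase of exon. They ran from 0.09 for *Kcnn4* to 14.9 for *Kcnip3*, with a median of 2.62, and 17 genes were above 5 and 17 under 1. *Kcnip3*, a calcium-binding partner of Kv4 channels, was at 14.5 ± 2.98 CPM per kilobase (SD, n = 4) in control cortex and 15.4 ± 1.26 in dcKO_Nex-Cre cortex. *Kcne1l*, a small single-span auxiliary subunit, was at 13.5 ± 2.38 and 14.01 ± 2.23 CPM per kilobase, and *Kcnip2*, another partner of Kv4, at 13.4 ± 1.11 and 12.8 ± 0.5598. In control cortex these 3 levels differed by less than the SD of *Kcnip3*, so that their order is not settled by these libraries.
Kv4 channels carry the fast transient current of dendrites, and *Kcnd2* at 12.4 and *Kcnd3* at 7.31 CPM per kilobase gave this family the highest median level, 7.31. The highest K2P gene, *Kcnk2* (TREK-1, a leak channel opened by stretch and lipids), was at 12.1 ± 0.878 CPM per kilobase in control cortex, next to *Kcnk1* at 9.71 over all libraries, whereas 6 of the 10 K2P genes stayed under 0.5. *Kcnj10* (Kir4.1), through which astroglia take up potassium, led the inward rectifiers at 7.196 ± 1.21 CPM per kilobase in control cortex. In other families the highest genes were *Kcnv1* among the silent subunits (6.97), *Kcnh4* in Kv10-12 (5.85), *Kcna6* in Kv1 (5.696), *Kcnc1* in Kv3 (5.43) and *Kcnt1* among the calcium- and sodium-activated channels (3.53 CPM per kilobase over the 8 libraries).

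**Figure D1:**
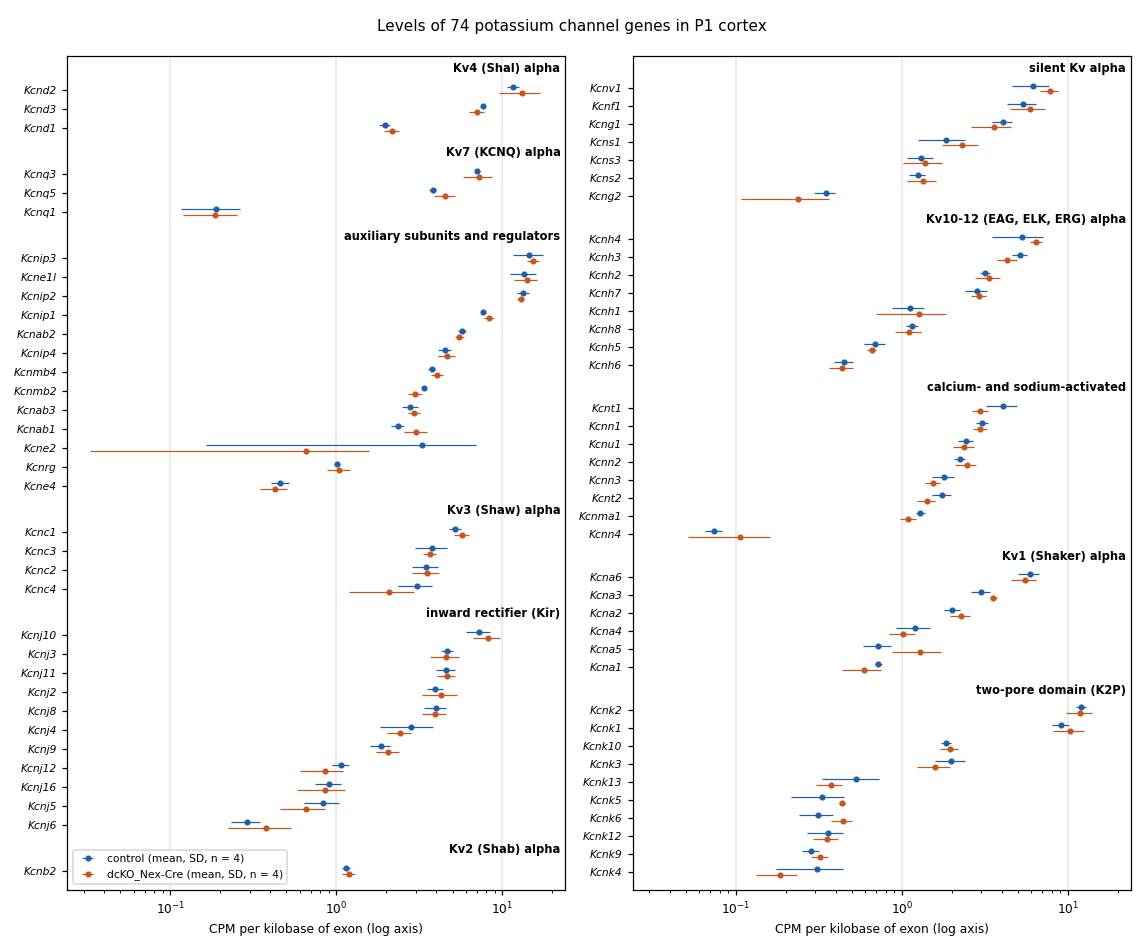
Levels of 74 of the 77 potassium channel genes in CPM per kilobase of exon on a log axis, in 11 families ordered by their median, with the mean and SD of 4 control (blue) and 4 dcKO_Nex-Cre (orange) libraries. *Kcnip3* and *Kcne1l* stand highest and *Kcnn4* lowest, and the bars of *Kcne2*, whose lower ends are shortened where the SD passes the mean, are the widest.

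No potassium channel gene passed an adjusted p of 0.05 in either direction, where 0.375% of all tested genes were called higher and 0.51% lower, 0.884% together. *Kcnn4* fell under edgeR's filter, so that 76 of the 77 genes were tested, and their smallest adjusted p was 0.169, that of *Kcna5*. At an unadjusted p under 0.05, 4 genes were higher and 4 lower in dcKO_Nex-Cre cortex, which is 10.5% of the members tested. Over all genes tested the share was 6.59% higher and 7.05% lower, 13.6% together. DESeq2's Wald test also called no member, where it called 1.23% of its genes higher and 1.55% lower (2.78%). At an unadjusted p under 0.05 it gave 4 members higher and 5 lower, beside 3.87% and 3.89% (7.76%) of the 30119 genes, low ones included, for which it gave a p. The groups did not overlap for 2 members (2.63%), 1 higher and 1 lower in dcKO_Nex-Cre cortex, against 3.99% and 4.01% of all genes tested (8.0%).
The log2 fold changes, dcKO_Nex-Cre over control, were above 0 for 39 members and below 0 for 37. Their median was 0.013, beside 0.0043 over all genes tested, and the median of their absolute values was 0.14, beside 0.13. They lay between -0.25 and 0.25 for 57 members, and 5 were beyond 0.5 in either direction. A missed threshold does not show that a gene was equal in both groups, and the 95% intervals give the sizes that remain possible. For 42 members the interval lay within -0.5 and 0.5, and for 69 within -1 and 1. *Kcnd3*, a Kv4 channel of high level, had an interval of -0.29 to 0.056, which leaves out a change of 0.5 on the log2 scale in either direction.

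**Figure D2:**
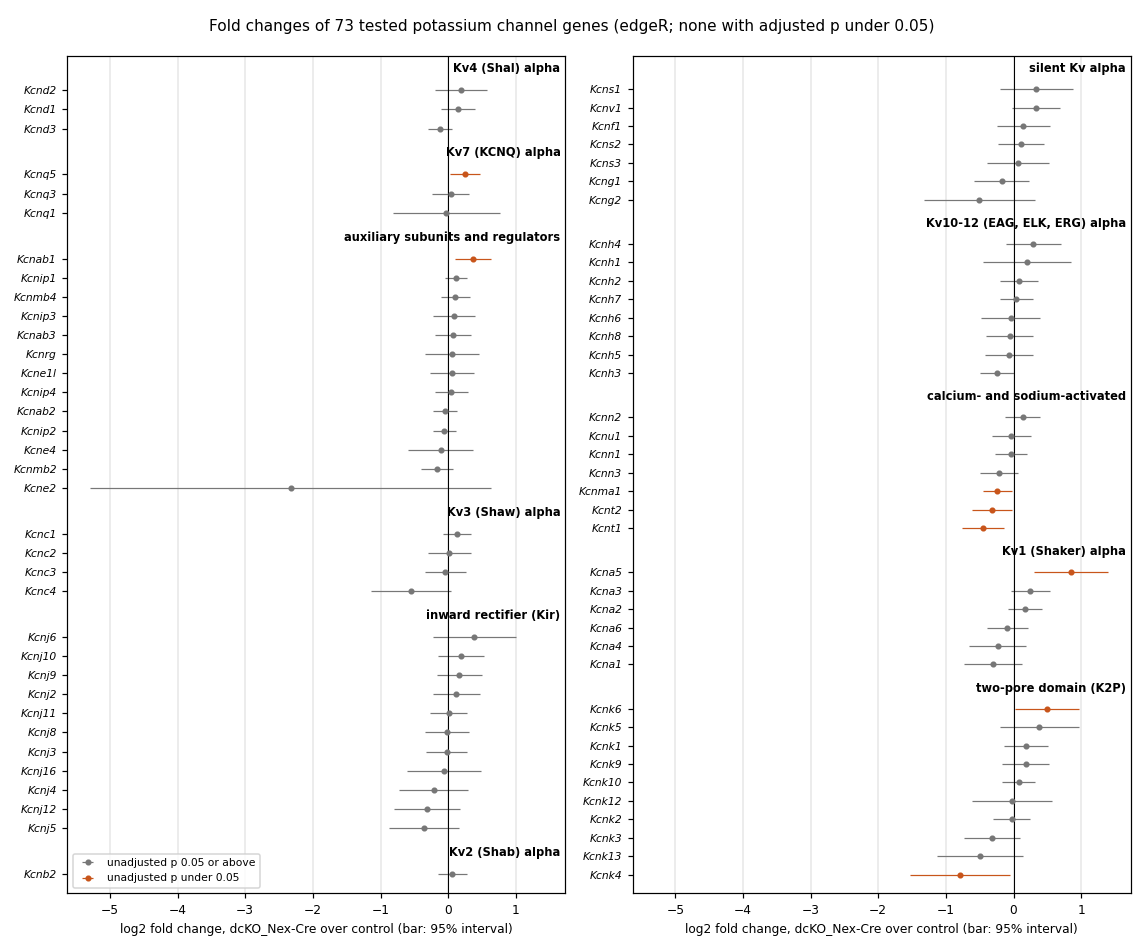
Log2 fold change of 73 of the 76 tested genes, dcKO_Nex-Cre over control, with its 95% interval from edgeR, by family. The 8 genes with an unadjusted p under 0.05 are in orange, most intervals cross 0, and *Kcne2* has by far the widest, from -5.29 to 0.64.

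In the family of calcium- and sodium-activated channels, 6 of 7 tested genes had a log2 fold change below 0, with a median of -0.22, and 3 of them had an unadjusted p under 0.05. Over all genes tested, 50.9% had a log2 fold change above 0 and 7.05% were lower at that threshold. Of the 11 families sorted by hand, this was the only one with more than 1 gene lower at that threshold. *Kcnn4*, the gene of the family that was not tested, was at 0.38 CPM in control cortex and 0.54 CPM in dcKO_Nex-Cre cortex. *Kcnt1* (Slack) and *Kcnt2* (Slick) are potassium channels opened by intracellular sodium, and *Kcnma1* is the alpha subunit of the BK channel, which opens on calcium and voltage together.
*Kcnt1* (ENSMUSG00000058740, chromosome 2, 25863734 to 25918273) was at 35.7, 49.9, 30.1 and 39.3 CPM in control replicates 1 to 4 and at 24.8, 32.5, 26.9 and 29.02 CPM in dcKO_Nex-Cre replicates 1 to 4. All dcKO_Nex-Cre libraries but replicate 2 lay below every control library, and control replicate 2 was far above the other controls. Its log2 fold change was -0.45 ± 0.14 (SE), with an unadjusted p of 0.00917 and an adjusted p of 0.202 in edgeR. Without control replicate 2 the log2 fold change was -0.30, and within lane tag 2 it was -0.43 (adjusted p = 0.217).
*Kcnma1* (ENSMUSG00000063142, chromosome 14, 23289431 to 24014491) was at 23.9, 21.1, 20.9 and 22.1 CPM in control cortex and 19.5, 18.2, 20.7 and 16.0 CPM in dcKO_Nex-Cre cortex. Every dcKO_Nex-Cre library was below every control library, though dcKO_Nex-Cre replicate 3 lay just under the lowest control. The log2 fold change was -0.24 ± 0.10 (SE) with an adjusted p of 0.321 in edgeR. A two-sided exact permutation test gave p = 0.0286, the smallest that 4 libraries against 4 allow. Any gene whose groups do not overlap gets this p, and 8.0% of all tested genes had such groups. The log2 fold change of *Kcnma1* was -0.17 without dcKO_Nex-Cre replicate 4 and -0.22 within lane tag 2 (adjusted p = 0.2196 and 0.223).
*Kcnt2* (ENSMUSG00000052726, chromosome 1, 140246158 to 140612067) was at 13.4, 12.6, 9.805 and 12.6 CPM in control cortex and 8.06, 9.85, 10.8 and 10.3 CPM in dcKO_Nex-Cre cortex. Control replicate 3 fell inside the range of the dcKO_Nex-Cre libraries, and the other 3 controls lay above it. The log2 fold change of *Kcnt2* was -0.31 ± 0.14 (SE) with an adjusted p of 0.339 in edgeR, and it was -0.34 without dcKO_Nex-Cre replicate 4 and -0.44 within lane tag 2 (adjusted p = 0.152 and 0.146). The small-conductance calcium-activated channels had log2 fold changes on both sides of 0, with -0.033 for *Kcnn1*, 0.13 for *Kcnn2* and -0.22 for *Kcnn3* (adjusted p between 0.472 and 0.914). *Kcnu1*, known for its role in sperm, was counted at 9.07 CPM in control cortex and 8.89 in dcKO_Nex-Cre cortex. Summed per kilobase, the 8 genes of the family were at 16.7 ± 1.22 CPM (mean ± SD of 4 libraries) and 14.95 ± 1.29 CPM (mean ± SD of 4 libraries), with overlapping ranges of 15.2 to 18.2 and 13.4 to 16.3.

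Kv1 channels open at low voltage in axons, and their Kvbeta partners bind inside the cell and speed inactivation. Of the 6 Kv1 genes, 3 had log2 fold changes above 0 and 3 below.
*Kcna5* (Kv1.5, ENSMUSG00000045534, chromosome 6, 126532551 to 126535412) was at 1.83, 1.697, 2.13 and 2.599 CPM in the control libraries and 4.06, 5.06, 3.51 and 2.19 CPM in the dcKO_Nex-Cre libraries. Replicates 1 to 3 of dcKO_Nex-Cre cortex were above all controls, while replicate 4 lay within their range. With all libraries the log2 fold change was 0.85 ± 0.25 (SE) with an adjusted p of 0.169 in edgeR. It passed the threshold without dcKO_Nex-Cre replicate 4 (1.02, adjusted p = 0.0173) and within lane tag 2 (1.13, adjusted p = 0.0413). DESeq2's Wald test gave it an adjusted p of 0.0529, and its level was low, with 72.1 counts on average.
*Kcnab1* (Kvbeta1, ENSMUSG00000027827, chromosome 3, 65109384 to 65378223) was at 21.3, 17.6, 20.5 and 21.3 CPM in control cortex and 30.0, 29.4, 22.3 and 22.4 CPM in dcKO_Nex-Cre cortex. The groups did not overlap, and dcKO_Nex-Cre replicates 1 and 2, both of lane tag 2, lay well above replicates 3 and 4, both of lane tag 8. Its log2 fold change was 0.37 ± 0.12 (SE) with an adjusted p of 0.216 in edgeR. The two-sided exact permutation test gave p = 0.0286, which only restates that the groups did not overlap. Within lane tag 2 the change was 0.56 (adjusted p = 0.0362), and without dcKO_Nex-Cre replicate 4 it was 0.44 (adjusted p = 0.0416). Over all genes tested, 0.834% were called higher within lane tag 2 and 3.98% without replicate 4.
In dcKO_Nex-Cre replicate 2, where *Kcna5* was highest, 8 markers of the striatum summed to 493 CPM, against 156 to 265 CPM in the other 7 libraries. Of the 8, *Ppp1r1b* was called higher (adjusted p = 0.0399), at 28.99, 30.7, 28.5 and 33.5 CPM in control cortex and 52.1, 88.3, 46.05 and 49.5 CPM in dcKO_Nex-Cre cortex. It was above every control in all 4 dcKO_Nex-Cre libraries, and the other 7 markers were each highest in replicate 2. Without that library the log2 fold change of *Kcna5* was 0.67 (adjusted p = 0.361) and that of *Kcnab1* was 0.31 (adjusted p = 0.436), both still above 0. The part of striatal tissue in these values was not tested.
The other 5 Kv1 genes had no unadjusted p under 0.05. *Kcna2*, an axonal channel, was at 23.99 ± 2.52 CPM (mean ± SD of 4 libraries) in control cortex and 26.9 ± 3.61 CPM in dcKO_Nex-Cre cortex, with an interval of the log2 fold change of -0.083 to 0.42. *Kcna6* had a log2 fold change of -0.092 that turned to 0.0049 without dcKO_Nex-Cre replicate 4. *Kcna1* was at 2.12, 2.41, 3.01 and 3.82 CPM in dcKO_Nex-Cre replicates 1 to 4 and at 3.53, 3.28, 3.67 and 3.35 CPM in the controls, so that replicates 1 to 3 were below every control and replicate 4 above.

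**Figure D3:**
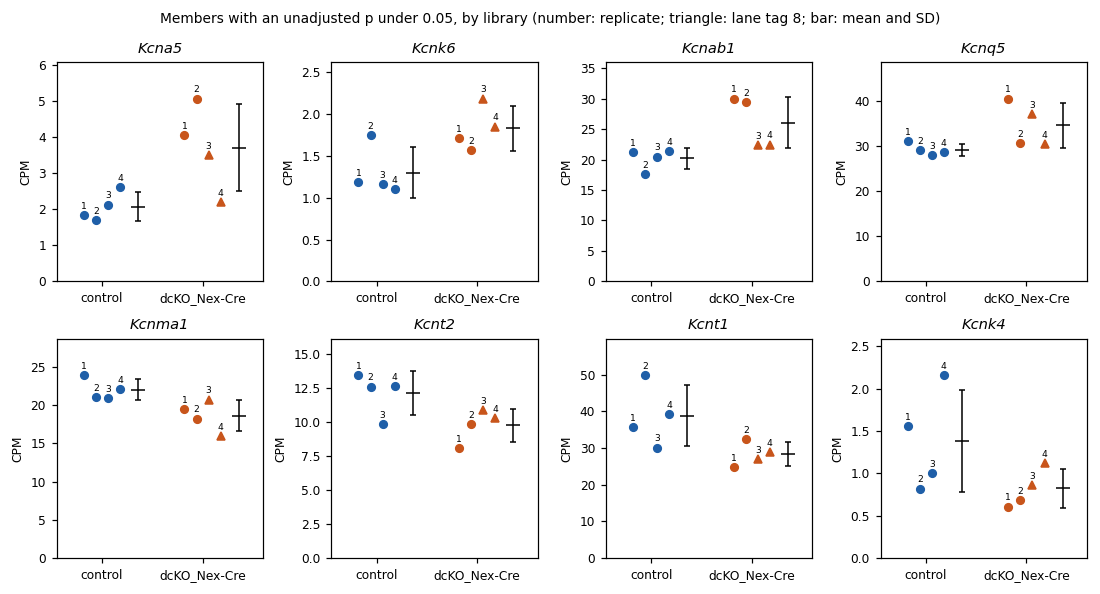
CPM of the 8 potassium channel genes with an unadjusted p under 0.05, 1 panel per gene from the largest increase to the largest decrease, with a point per library, its replicate number, and the mean and SD of each group. The groups are separate only for *Kcnab1* and *Kcnma1*. For *Kcna5*, dcKO_Nex-Cre replicate 4 alone lies among the controls, and for *Kcnq5*, *Kcnt2* and *Kcnk4* other dcKO_Nex-Cre libraries lie there beside it.

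The Kv7 family, which carries the M-current, the slow current that holds back repeated firing, held 2 log2 fold changes above 0 and 3 below, with a median of -0.028. *Kcnq5* (ENSMUSG00000028033, chromosome 1, 21398403 to 21961942) was at 31.1, 29.1, 28.04 and 28.7 CPM in control cortex and 40.5, 30.7, 37.1 and 30.4 CPM in dcKO_Nex-Cre cortex. Replicates 1 and 3 of dcKO_Nex-Cre cortex were above all controls, and replicates 2 and 4 were inside their range. Its log2 fold change was 0.25 ± 0.10 (SE) with an adjusted p of 0.325 in edgeR, and 0.31 without dcKO_Nex-Cre replicate 4 (adjusted p = 0.0662). Without dcKO_Nex-Cre replicate 1 it was 0.16 (adjusted p = 0.5896).
*Kcnq3* (ENSMUSG00000056258, chromosome 15, 65986387 to 66286642), a main subunit of the M-channel, was at 103, 108, 99.5 and 104 CPM in control replicates 1 to 4 and at 126, 105, 116 and 77.4 CPM in the dcKO_Nex-Cre replicates. The 4 controls of *Kcnq3* varied by 3.31% (SD over mean) and the dcKO_Nex-Cre libraries by 19.6%, with replicate 4 the lowest of all 8. The interval of its log2 fold change was -0.24 to 0.31. *Kcnq1*, known from heart and epithelia, had 18.5 counts on average.

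Delayed rectifiers of the Kv2 and Kv3 families, which end the action potential, held no gene with an unadjusted p under 0.05. *Kcnc1* (Kv3.1), a channel of fast-firing cells, went from 49.1 ± 4.22 to 53.7 ± 5.58 CPM (SD, n = 4 each), with an interval of -0.075 to 0.34. The lowest log2 fold change among these 6 genes was that of *Kcnc4*, -0.55 (adjusted p = 0.393), with 11.8, 8.703, 9.64 and 14.7 CPM in control cortex and 11.7, 5.86, 8.25 and 4.43 CPM in dcKO_Nex-Cre cortex. Replicate 1 of dcKO_Nex-Cre cortex lay among the controls for *Kcnc4*, and replicates 2 to 4 were below all of them.
Kv4 channels work with the KChIP subunits (*Kcnip1* to *Kcnip4*), which bind calcium and bring them to the membrane. *Kcnd2* (ENSMUSG00000060882, chromosome 6, 21215503 to 21729805) was at 62.4, 53.1, 64.2 and 59.2 CPM in control cortex and 80.4, 72.8, 77.6 and 40.5 CPM in dcKO_Nex-Cre cortex. Replicates 1 to 3 of dcKO_Nex-Cre cortex were above every control and replicate 4 was below every control. With all libraries its log2 fold change was 0.19 (adjusted p = 0.657 from edgeR), and without replicate 4 it was 0.37 (adjusted p = 0.0222). Within lane tag 2 the log2 fold change was 0.36 (adjusted p = 0.07603). *Kcnd3* had the smallest variation of all members in control cortex, 1.38%, and a log2 fold change of -0.12 (adjusted p = 0.524). *Kcnip3* was at 56.4, 35.6, 56.8 and 57.1 CPM in control cortex and 56.1, 54.3, 59.05 and 48.4 CPM in dcKO_Nex-Cre cortex, so that control replicate 2 alone was low. The 4 KChIP genes had log2 fold changes between -0.056 (*Kcnip2*) and 0.12 (*Kcnip1*), and none had an unadjusted p under 0.05.

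The silent subunits (*Kcnf1*, *Kcng*, *Kcns* and *Kcnv* genes) form no channel alone and change the Kv2 channels they join. Of 7 genes, 5 had log2 fold changes above 0, and none had an unadjusted p under 0.05. *Kcnv1* was at 31.3, 21.5, 23.4 and 37.0 CPM in control cortex and 41.7, 32.4, 36.4 and 32.05 CPM in dcKO_Nex-Cre cortex. The control libraries spread from 21.5 to 37.0 CPM, which took in 3 of the 4 dcKO_Nex-Cre libraries, and the log2 fold change was 0.33 (adjusted p = 0.391 from edgeR).
In the Kv10-12 family, which includes the ERG channels, 4 of 8 genes were on either side of 0. *Kcnh4* was at 17.9, 31.1, 15.1 and 19.2 CPM in control cortex and 24.9, 28.6, 24.3 and 24.02 CPM in dcKO_Nex-Cre cortex. Control replicate 2 was the highest library of all, and the 4 dcKO_Nex-Cre libraries lay between it and the other controls. Without control replicate 2 its log2 fold change went from 0.29 to 0.56 (adjusted p = 0.0626), and without control replicate 3 to 0.17 (adjusted p = 0.705). *Kcnh2* (ERG1) had an interval of -0.20 to 0.36.

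The inward rectifiers hold channels of different cell types. None of the 11 genes had an unadjusted p under 0.05, and their median log2 fold change was -0.016. *Kcnj10* (ENSMUSG00000044708, chromosome 1, 172341210 to 172374085) was at 41.2, 29.4, 40.8 and 44.2 CPM in control cortex and 44.5, 47.6, 52.04 and 32.5 CPM in dcKO_Nex-Cre cortex. Both groups held a low library, control replicate 2 and dcKO_Nex-Cre replicate 4, and the log2 fold change was 0.18 with an interval of -0.15 to 0.52. Markers of radial glia and astrocytes summed to 2435 to 2925 CPM in control cortex and 2112 to 2717 CPM in dcKO_Nex-Cre cortex, with none of 8 tested called. *Fabp7*, the most abundant of them, was at 1584 and 1123 CPM (log2 fold change -0.50, adjusted p = 0.114), and without it, a choice made after its values were seen, the list summed to 831 to 1224 CPM and 936 to 1480 CPM. The astroglial *Aldoc* and *Gfap* had log2 fold changes of 0.37 and 0.34 (unadjusted p = 0.0255 and 0.0174 from edgeR, adjusted p = 0.291 and 0.256), on the same side of 0 as *Kcnj10*. Of the 8 tested markers, however, 4 were above 0 and 4 below, with 2 in each direction at an unadjusted p under 0.05. Below 0 beside *Fabp7* were *Hopx* (-0.35), *Aldh1l1* (-0.35) and *Aqp4* (-0.10). For *Hopx* every dcKO_Nex-Cre library was below every control (unadjusted p = 0.00317 from edgeR, adjusted p = 0.131). Markers of oligodendrocyte precursors, which can also carry Kir4.1, summed to 173 to 252.0 CPM in control cortex and 252.1 to 308 CPM in dcKO_Nex-Cre cortex. All 5 had log2 fold changes above 0 (median 0.40), 4 of them with an unadjusted p under 0.05 in edgeR. *Cspg4* among these precursor markers was called higher (adjusted p = 0.0355). Their part in the value of *Kcnj10* was not tested.
*Kcnj8* (Kir6.1), which pericytes of the brain vessels express with the sulfonylurea receptor of *Abcc9*, was at 10.1 ± 1.505 CPM (mean ± SD of 4 libraries) in control cortex and 10.01 ± 1.66 CPM in dcKO_Nex-Cre cortex, and the interval of its log2 fold change was -0.34 to 0.31. The 8 pericyte markers summed to 199.9 to 272 CPM in control cortex and to 217 to 239 CPM in dcKO_Nex-Cre cortex, with 5 log2 fold changes above 0 and 3 below. *Rgs5*, the most abundant of them, was at 134 and 101 CPM (log2 fold change -0.41). Its adjusted p in edgeR was 0.127, and 0.0208 without dcKO_Nex-Cre replicate 4. *Cspg4*, which is also in this list, was called higher (adjusted p = 0.0355 in edgeR). Their part in the value of *Kcnj8* was not tested. *Kcnj11* (Kir6.2), the form found in neurons, had a log2 fold change of 0.0088. Among the G protein-gated channels, *Kcnj3* (-0.021), *Kcnj6* (0.39), *Kcnj9* (0.16) and *Kcnj5* (-0.36) had log2 fold changes on both sides of 0. Exons of the antisense gene *Gm26794* cover 31.1% of the exon bases of *Kcnj3*, and whether counting used strand is not stated.

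Tandem-pore channels set the leak current, and 5 of 10 had log2 fold changes above 0. *Kcnk6* (TWIK-2, ENSMUSG00000046410, chromosome 7, 29221926 to 29232515) was at 1.19, 1.75, 1.17 and 1.101 CPM in control cortex and 1.71, 1.57, 2.19 and 1.85 CPM in dcKO_Nex-Cre cortex. Apart from control replicate 2, every dcKO_Nex-Cre library was above every control. Its log2 fold change was 0.50 ± 0.22 (SE) with an adjusted p of 0.346 in edgeR on 37.1 counts on average. Without dcKO_Nex-Cre replicate 4 it was 0.49 and within lane tag 2 0.35 (adjusted p = 0.2001 and 0.452).
*Kcnk4* (TRAAK, a leak channel of neurons that responds to stretch, ENSMUSG00000024957, chromosome 19, 6923966 to 6934515) was at 1.56, 0.821, 1.001 and 2.16 CPM in control cortex and 0.609, 0.6898, 0.867 and 1.12 CPM in dcKO_Nex-Cre cortex. Control replicates 1 and 4 were above all dcKO_Nex-Cre libraries, and control replicates 2 and 3 lay among them. The log2 fold change was -0.79 ± 0.33 (SE) with an adjusted p of 0.331 in edgeR, with 25.2 counts on average, and *Catsperz* on the same strand shares 13.1% of its exon bases. The log2 fold change of *Kcnk4* was -0.49 without control replicate 4, -0.95 without dcKO_Nex-Cre replicate 4 and -1.10 within lane tag 2, and its adjusted p was 0.625, 0.105 and 0.154. *Kcnk2*, the most abundant of the family, was at 63.6, 53.5, 61.5 and 59.96 CPM in the controls and 68.3, 57.8, 63.1 and 44.1 CPM in the dcKO_Nex-Cre libraries, with a log2 fold change of -0.029 that became 0.085 without dcKO_Nex-Cre replicate 4.

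*Kcne2* codes for a small auxiliary subunit that the choroid plexus, the epithelium that makes cerebrospinal fluid, expresses strongly. It was at 7.88, 0.274, 1.21 and 13.9 CPM in control cortex (ENSMUSG00000039672, chromosome 16, 92292389 to 92298129) and at 0.174, 3.56, 0.289 and 0.617 CPM in dcKO_Nex-Cre cortex. Control replicates 1 and 4 and dcKO_Nex-Cre replicate 2 were high, and the other 5 libraries were at 1.21 CPM or less. Its log2 fold change was -2.33 ± 1.26 (SE) with an adjusted p of 0.459 in edgeR, and its CPM varied by 109.5% within control cortex and 139% within dcKO_Nex-Cre cortex. Without dcKO_Nex-Cre replicate 2 the log2 fold change was -4.15 and without control replicate 4 it was -1.43, and it was -2.15 without dcKO_Nex-Cre replicate 4 and -1.71 within lane tag 2.
*Kcnj13* (Kir7.1), the potassium channel of the choroid plexus, did not reach the minimum of 10 counts. It had 18, 0, 5 and 22 counts in control cortex and 1, 14, 1 and 2 in dcKO_Nex-Cre cortex, and its high libraries were those of *Kcne2*. Of its 1270 exon bases, 623 also lie in exons of *Gigyf2* on the other strand. The 14 choroid plexus markers summed to 810, 50.9, 130.4 and 1433 CPM in control cortex and to 55.3, 620.1, 54.0 and 43.8 CPM in dcKO_Nex-Cre cortex. *Ttr*, the most abundant of them, was at 531 CPM on average in control cortex and 141 in dcKO_Nex-Cre cortex. Of 11 tested markers none was called and 9 had log2 fold changes below 0, and none of the 14 was at 0 in every library. The same 3 libraries were thus high in all of these measures, and the part of attached choroid plexus in the value of *Kcne2* was not tested.

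**Figure D4:**
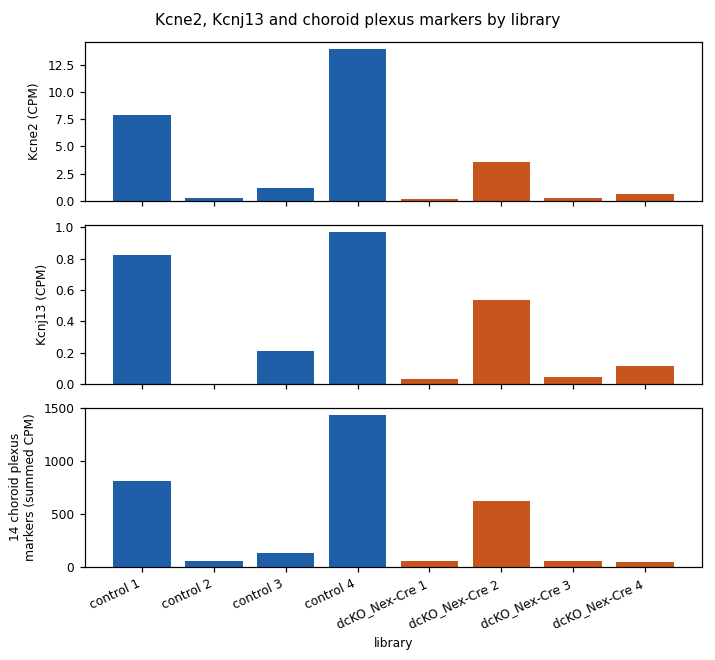
CPM of *Kcne2* and *Kcnj13* and the summed CPM of 14 choroid plexus markers in each of the 8 libraries, with control in blue and dcKO_Nex-Cre in orange. Control replicates 1 and 4 and dcKO_Nex-Cre replicate 2 are the 3 highest libraries in each panel.

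Of the 13 auxiliary genes, *Kcnab1* alone had an unadjusted p under 0.05. *Kcnab2* and *Kcnab3*, the other Kvbeta subunits, had log2 fold changes of -0.052 and 0.071, where that of *Kcnab1* was 0.37. The BK beta subunits *Kcnmb2* and *Kcnmb4* had log2 fold changes of -0.17 and 0.10, beside -0.24 for the BK pore *Kcnma1*. Exons of an antisense gene cover 20.8% of those of *Kcnmb4*. Without *Kcne2*, log2 fold changes of the auxiliary genes ran from -0.17 to 0.37.

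The calls depended on single libraries. Replicate 4 of dcKO_Nex-Cre cortex was the lowest of the 8 libraries for 21 of the 76 tested members (27.6%, against 19.6% of all tested genes), and replicate 1 was the highest for 21 (27.6%, against 22.5%). Control replicate 2 was the lowest for 17 members (22.4%, against 18.8%). Without dcKO_Nex-Cre replicate 4, *Kcna5*, *Kcnd2* and *Kcnab1* were called higher and no member was called lower, while 3.98% and 3.74% of all genes tested were called in these directions (7.73%). At an unadjusted p under 0.05 that fit gave 9 members higher and 5 lower, against 14.3% and 13.9% of all tested genes (28.2%). Within lane tag 2, which keeps 2 dcKO_Nex-Cre libraries, *Kcna5* and *Kcnab1* were called higher, where 0.834% of all tested genes were called higher and 0.643% lower (1.48%), and 8 members were higher and 4 lower at the unadjusted threshold, beside 11.7% and 11.8% of all tested genes (23.5%).

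**Figure D5:**
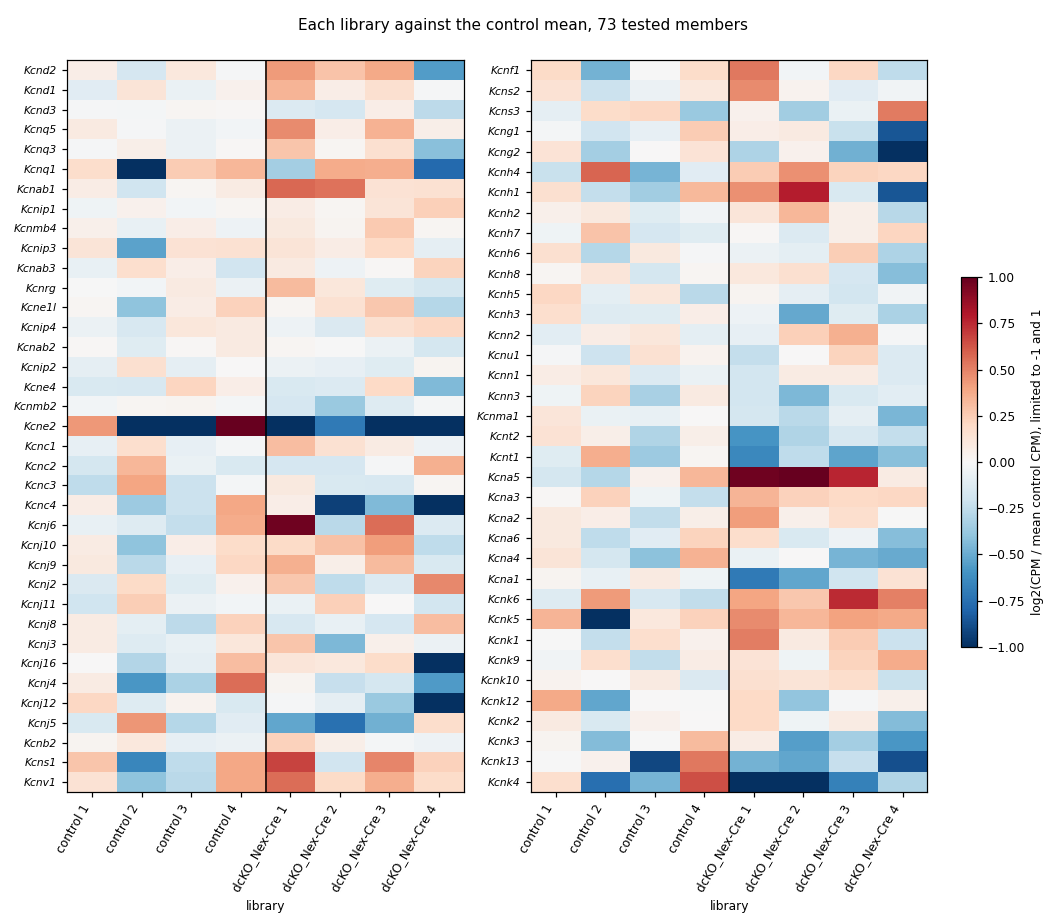
Log2 ratio of each library's CPM to the mean of the 4 controls for 73 of the 76 tested genes, in the family order of the levels plot, limited to -1 and 1. The column of dcKO_Nex-Cre replicate 4 differs in colour from those of replicates 1 to 3 for *Kcnd2*, *Kcnq3* and *Kcna1*.

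Other genes of potassium channel complexes and of potassium transport were read from a list of 37 partners, of which 35 were tested. Their median log2 fold change was 0.067, with 26 above 0 and 9 below, and 1 of them, *Pex5l*, had an adjusted p under 0.05. Over all genes tested the median was 0.0043, 50.9% were above 0 and 0.884% were called. *Pex5l* (TRIP8b) is the auxiliary subunit that places HCN channels, which carry the hyperpolarization-activated cation current, in dendrites. It was at 18.3, 13.2, 15.9 and 16.9 CPM in control cortex and 10.5, 8.47, 9.49 and 6.96 CPM in dcKO_Nex-Cre cortex (ENSMUSG00000027674, chromosome 3, 32949408 to 33143247). Every dcKO_Nex-Cre library was below every control, and its log2 fold change was -0.86 ± 0.14 (SE) with an adjusted p of 0.0244 in edgeR. The call held without dcKO_Nex-Cre replicate 4 (adjusted p = 0.0103) and within lane tag 2 (adjusted p = 0.0464), but no partner was called when control replicate 1, 3 or 4 or dcKO_Nex-Cre replicate 2 or 3 was left out, 5 of the 8 such fits. In those 5 fits, 9 to 27 of all genes tested were called higher and 9 to 21 lower, against 61 and 83 with all libraries. The pore-forming *Hcn2*, *Hcn3* and *Hcn4* had log2 fold changes of 0.047, -0.12 and 0.14, and their adjusted p were 0.574 or more.
*Adam22*, a membrane protein found with Kv1 channels and the receptor of *Lgi1*, was at 99.3, 108, 99.1 and 109.8 CPM in control cortex and 128, 125, 132 and 121 CPM in dcKO_Nex-Cre cortex. Its groups did not overlap either, with all dcKO_Nex-Cre libraries higher, and its log2 fold change was 0.28 ± 0.067 (SE) with an adjusted p of 0.0844 in edgeR. DESeq2's Wald test, and the fit without dcKO_Nex-Cre replicate 4 (adjusted p = 0.0211), called it higher. *Abcc8*, the sulfonylurea receptor that joins *Kcnj11*, was at 19.8 ± 2.89 CPM (mean ± SD of 4 libraries) and 15.8 ± 2.58 CPM, with a log2 fold change of -0.33 (adjusted p = 0.311). The Kv4 partners *Dpp6* and *Dpp10* had log2 fold changes of 0.28 and -0.014. For the sodium pump subunits and the cotransporters that move potassium with chloride, none of 11 genes was called, and *Atp1b3* alone had an unadjusted p under 0.05 (log2 fold change -0.20).

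Markers of other cell types gave the following sums. Endothelium was at 121 to 181 CPM in control cortex and 156 to 203 CPM in dcKO_Nex-Cre cortex, microglia at 105 to 121 and 109 to 146 CPM, and erythrocytes at 82.8 to 138 and 82.2 to 186 CPM. Interneuron markers summed to 733 to 888 and 633 to 791 CPM, and thalamic markers to 132 to 140 and 113 to 138 CPM. Among these 5 lists *C1qb*, a microglial gene, was the only marker with an adjusted p under 0.05 (0.0422, and 0.0704 within lane tag 2), with 20.2 CPM in control cortex and 27.8 CPM in dcKO_Nex-Cre cortex. *P2ry12* of the same list was lower in every dcKO_Nex-Cre library than in any control, at 12.1 and 8.12 CPM (log2 fold change -0.57, adjusted p = 0.0596, and 0.03002 without dcKO_Nex-Cre replicate 4). Their part in the values of potassium channel genes was not tested.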

How the data were processed

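The authors deposited 1 table of raw counts for each library, by Ensembl gene identifier and not normalized. Libraries were made with a TruSeq kit from total RNA, the submitters' processing notes name the build mm10, and the aligner, the counting program, the annotation and the use of strand are not given in the sources used here. Of 48709 identifiers, 48349 were matched to GENCODE M21 (GRCm38, the same assembly as mm10), which gave symbols, positions and exon lengths.

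Differential expression was tested with edgeR 4.0.16 in R 4.3.3 (filterByExpr, TMM, robust quasi-likelihood F test, two-sided, Benjamini-Hochberg over all 16287 genes tested, threshold 0.05). The methods read here name no test for these libraries. Standard errors are the log2 fold change divided by the root of F, and 95% intervals use edgeR's degrees of freedom. For single genes, a two-sided exact permutation test used all 70 regroupings, and its smallest p is 0.0286. For *Kcna5*, *Kcnt1*, *Kcnq5*, *Kcnk6*, *Kcnt2* and *Kcnk4* this permutation test gave p from 0.057 to 0.14. CPM per kilobase divides CPM by the union of exon lengths.

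The alternatives were DESeq2 size factors, the Wald test of DESeq2 1.42.0, limma-voom (limma 3.58.1), no filter, at least 10 counts in every library, the replicate number as a block, lane tag 2 only, and each library left out. The scripts were tested on simulated data. Replicate libraries differed by more than sampling noise (chi-square over degrees of freedom at least 3.76 for each pair).

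The members, families, partner and marker lists were chosen with earlier results of these data known. Genes were named if they had an adjusted p under 0.05, were among the 10 in each direction with the smallest unadjusted p under 0.05, led their family in level, or were chosen for their role (among them *Kcnj13*, *Kcne2*, *Kcnj8*, *Kcnj10*, *Kcnq3*, *Kcnq5*, *Kcnd2*, *Kcna2* and *Kcnma1*). Some genes and sequences that these rules cover are not reported here. Other members, partners and markers named in the text were chosen after their values were seen. Figures were drawn in Python 3.11.15 with matplotlib 3.10.9.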

Additional observations from a re-analysis of the deposited data

Results flagged for a closer look

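In 44 groups of 4 values (20 named members, library totals and mitochondrial shares, each by group), 4 held a library far from the other 3, where chance gives about 1 in 20, or 2.2. Control replicate 2 was that library in 2 of them. It held *Kcnip3* at 35.6 CPM, against 56.4 to 57.1 in the other controls, and *Kcnk6* at 1.75 CPM, against 1.10 to 1.19. For *Kcna2*, control replicate 3 had 20.2 CPM and the other controls 24.98 to 25.7. For *Kcne2*, dcKO_Nex-Cre replicate 2 had 3.56 CPM and the other dcKO_Nex-Cre libraries 0.17 to 0.62, and choroid plexus markers summed to 620.1 CPM in that library and to 43.8 to 55.3 CPM in the other 3.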

How the results depend on the processing

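No member was called at an adjusted p of 0.05 under DESeq2 size factors, DESeq2's Wald test, limma-voom, either filter, the replicate block or 7 of the 8 fits that leave out a library. The exceptions were lane tag 2 only (2 higher) and the fit without dcKO_Nex-Cre replicate 4 (3 higher). Across the fits that leave out a library, members called higher ranged from 0 to 3 and called partners from 0 to 6. Of all genes tested, 9 to 659 were called higher and 9 to 619 lower in these fits. At an unadjusted p under 0.05, members higher ranged from 2 (without control replicate 3 or dcKO_Nex-Cre replicate 3) to 9 (without dcKO_Nex-Cre replicate 4). Members lower ranged from 1 (without control replicate 1 or 4) to 7 (without control replicate 2). Among these fits, the share of all genes at that threshold is given only for the one without dcKO_Nex-Cre replicate 4. The ranges are therefore not read as a result about the members. Members whose groups do not overlap ranged from 3 (without dcKO_Nex-Cre replicate 1 or 3) to 9 (without replicate 4). This is 3.95% to 11.8% of the members tested, beside 9.71% to 27.2% of all genes. Within lane tag 2, 8 members were higher at the unadjusted threshold and 14 did not overlap, where 35.9% of all tested genes did not overlap, and DESeq2's Wald test called 2 partners. The cause of these shifts was not tested beyond the number of libraries.

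Of 299 values of named members, 281 kept their direction and side of the threshold, 5 passed it and 13 changed sign. Within lane tag 2, *Kcna6* changed to 0.026 and *Kcnk2* to 0.083. Leaving out a library gave ranges of -0.20 to 0.0049 for *Kcna6*, -0.050 to 0.14 for *Kcnip3*, -0.13 to 0.072 for *Kcnj8*, -0.11 to 0.085 for *Kcnk2* and -0.058 to 0.16 for *Kcnq3*. Among other ranges that moved by over 1.5 times were 0.073 to 0.22 for *Kcna2*, 0.066 to 0.20 for *Kcnc1*, 0.095 to 0.37 for *Kcnd2* and 0.081 to 0.31 for *Kcnj10*. The same held for *Kcnh4* (0.17 to 0.56), *Kcnq5* (0.16 to 0.31), *Kcnt1* (-0.56 to -0.30), *Kcnk4* (-0.95 to -0.49) and *Kcne2* (-4.15 to -1.43). *Smarcc1* missed the threshold within lane tag 2 (-0.46, adjusted p = 0.0752 from edgeR), under the replicate block (-0.54, adjusted p = 0.0578) and in 6 of the 8 fits that leave out a library (range -0.63 to -0.47), while *Smarcc2* passed in all (range -0.87 to -0.77).

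Deviations of same-numbered libraries from their group means correlated at 0.126, 0.018, 0.135 and -0.138, and those of differently numbered libraries at -0.292 to 0.371. These correlations cannot show whether samples were collected as pairs, and the main fit used no pairing. With the replicate block, 21 genes were higher and 33 lower in all, against 61 and 83, and 5 and 4 members passed the unadjusted threshold. The share of all genes at the unadjusted threshold was not taken for this fit. Low counts limit *Kcnk12* (a mean of 16.75 counts), *Kcnq1* (18.5), *Kcng2* (21.1) and *Kcnk4* (25.25).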

Other observations

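The 5 antisense genes with a *Kcn* name were not called. *Kcnq1ot1*, the noncoding RNA of the imprinted *Kcnq1* region, was at 8.57 ± 2.45 CPM (mean ± SD of 4 libraries) in control cortex and 6.94 ± 1.51 CPM in dcKO_Nex-Cre cortex (log2 fold change -0.31, adjusted p = 0.536 from edgeR). *Kcnmb4os2*, which lies opposite *Kcnmb4*, was at 6.90 ± 0.4897 and 6.42 ± 0.859 CPM, and *Kcnd3os* at 0.971 ± 0.302 and 0.903 ± 0.297 CPM. *Kcnab3os* and *Kcnmb4os1*, with a mean of 9 and 0.25 counts, were not tested.

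Of the 17 protein-coding *Kcn* genes under the minimum, *Kcna10* and *Kcnk16* had no count in any library, which does not exclude a level too low to be counted here. *Kcnj14*, *Kcnj15*, *Kcng3* and *Kcnj13* had between 5.88 and 7.88 counts on average, and the other 11 had at most 3.13.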
